A study of Mus musculus with 6 samples.

Results

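The barcodes described here carried distal tubule transcripts and took more than 20% of their transcripts from the mitochondrial genome, a level at which barcodes are usually discarded. Members were all Drop-seq barcodes with at least 300 detected genes, a mitochondrial share above 20% and at least 5 unique molecular identifiers (UMIs, each standing for 1 captured transcript) summed over Fxyd2, Atp1b1, Slc12a3, Slc12a1, Umod and Pvalb. The rule found 554 of the 15465 barcodes, and replicates 1 to 4 held 92, 265, 92 and 105 of them. The comparison barcodes met the same marker rule with a mitochondrial share of at most 20%, and there were 886 of them (195, 407, 145 and 139 in replicates 1 to 4). The barcodes were thus chosen by their gene count, their mitochondrial share and their UMIs of the 6 markers, so those values are given as description with no test.

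The study dissociated glomeruli, the filtering capillary tufts of the kidney, from male CD1 IGS outbred mice aged 8 weeks. Cells were fixed in 80% methanol and run through Drop-seq, which pairs single cells with barcoded beads in droplets, to give 4 libraries. No treatment or genotype set the libraries apart, and both sets of barcodes came from the same 4 libraries. The labels did not say whether these came from separate animals or cultures, so every p-value below reflects only how these libraries vary among themselves, and that variation may be technical.

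The distal nephron begins with the thick ascending limb, continues as the distal convoluted tubule and passes through the connecting tubule into the collecting duct. Its epithelial cells move salt with the sodium-potassium pump, which splits ATP, and the thick ascending limb and the distal convoluted tubule are packed with mitochondria. Mitochondria carry a small genome that encodes ribosomal RNAs, transfer RNAs and a few subunits of the respiratory complexes, whereas the remaining subunits come from nuclear genes.

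High mitochondrial shares were found mainly in barcodes with tubular markers. Of the tubular-marked barcodes, 32.1%, 39.4%, 38.8% and 43.0% lay above 20% in replicates 1 to 4, a mean of 38.3% ± 4.58 (SD, n = 4 libraries). Among the 13137 other barcodes with at least 300 genes, 30 lay above it, which is 0.228%. Their median share was 4.58%, and that of all tubular-marked barcodes was 17.7%. The members made up 94.9% of the 584 barcodes above the limit. Replicate 2 alone held 265 of the 554 members, and the counts that changed most without it are also given without it below.

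**Figure D1:**
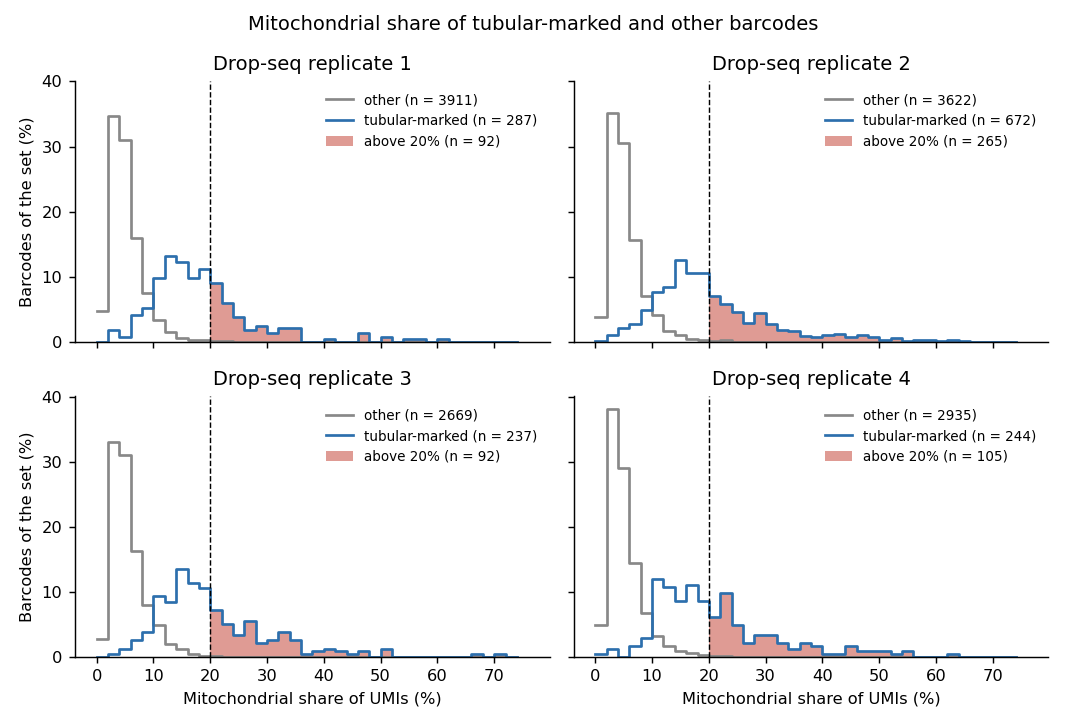
Mitochondrial share of UMIs (horizontal axis, in percent, in steps of 2) against the share of each set of barcodes (vertical axis, in percent) in the 4 Drop-seq replicates. The grey line shows other barcodes, the blue line tubular-marked barcodes and the red area the members above the dashed 20% line. Tubular-marked barcodes run through the limit without a gap, while other barcodes centre near 4.58%.

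The limit cut through a continuous distribution. The 105 tubular-marked barcodes between 20% and 22% had a median of 1963 UMIs and 949 genes, and the 149 between 18% and 20% had 1911 UMIs and 962 genes. At the marker limit, 1 barcode above 20% had exactly 5 marker UMIs, with a total of 834 UMIs, while 3 had 4 marker UMIs with a median total of 1163. Over all members the median mitochondrial share was 27.0%, the highest was 71.2% and 1 in 10 members lay above 45.4%. By library the median share of the members was 24.6%, 27.5%, 27.7% and 26.8% in replicates 1 to 4. In the comparison barcodes it was 13.7%, 14.6%, 15.2% and 14.0%.

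Members had both more mitochondrial and fewer nuclear transcripts. Their median was 439 mitochondrial UMIs against 250 in the comparison barcodes, and 1032.5 UMIs of nuclear genes against 1624. The median total was 1497.5 against 1897.5 UMIs, with 694.5 against 995.5 genes. When each barcode was thinned to 400 nuclear UMIs, the median number of genes was 316 in members and 322 in comparison barcodes, with 13 and 5 shallower barcodes left out. From the bin of 15 to 20% to that of 30 to 40%, the median of nuclear UMIs went from 1663 to 756 and that of mitochondrial UMIs from 347 to 388. The 86 barcodes above 40% had medians of 786.5 nuclear and 680 mitochondrial UMIs.

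**Figure D2:**
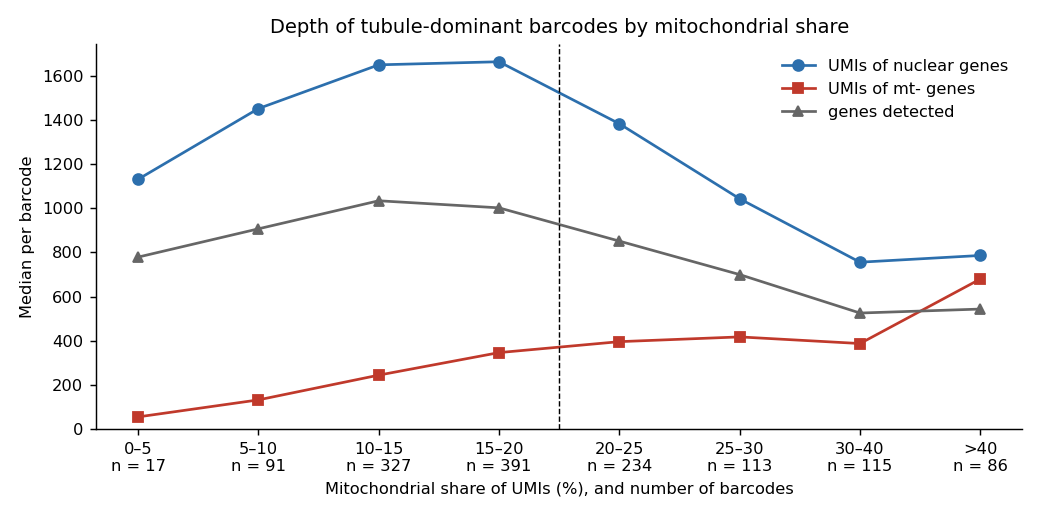
Median UMIs of nuclear genes (blue circles), UMIs of mitochondrial genes (red squares) and genes detected (grey triangles) per barcode, in bins of mitochondrial share for barcodes led by tubular markers. The dashed line marks 20%. Above it the median of nuclear UMIs is lower in each bin up to 30–40%, where it is 756, while mitochondrial UMIs stay between 388 and 418 until the last bin, where they are 680. The bin of 0 to 5% holds only 17 barcodes.

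Of the 15 barcode sequences that occurred in more than 1 library, 7 occurred in all 4. They included 3 members and 1 comparison barcode, and none was tubular-marked in more than 1 library. No doublet caller was run, so barcodes holding 2 cells were not removed.

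The rule's own markers were distributed as follows, which does not test the label since they chose the barcodes. In members, Fxyd2, the gamma subunit of the sodium pump, stood at 10957, 11049, 11247 and 11121 per 1000000 nuclear UMIs in replicates 1 to 4, and in comparison barcodes at 9855, 8945, 8474 and 9993. Slc12a3, the sodium-chloride cotransporter of the distal convoluted tubule, stood at 4750 ± 436 in members and 4003 ± 308 in comparison barcodes. Parvalbumin (Pvalb), a calcium-binding protein of the early distal convoluted tubule, was at 5572 ± 319 and 4584 ± 364. The sodium pump subunit Atp1b1 stood at 9909 ± 693 and 8706 ± 936. These levels, all per 1000000 nuclear UMIs (mean ± SD, n = 4 libraries), entered the choice of the barcodes.

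Uromodulin (Umod), a protein secreted by the thick ascending limb, showed the widest gap among the markers. It stood at 4552, 5074, 4685 and 3942 per 1000000 nuclear UMIs in members and at 2893, 3163, 2268 and 2533 in comparison barcodes, with no overlap between the sets. A Umod UMI was found in 78.2% of members and in 64.8% of comparison barcodes. In the 13137 other barcodes, whose median depth was 932 UMIs, it was found in 1.66%. Those had fewer than 5 UMIs of the 6 markers, Umod included, so their low share follows from the rule. The sodium-potassium-chloride cotransporter Slc12a1, the defining transporter of the thick ascending limb, was seen in only 2.53% of members and 3.05% of comparison barcodes. It stood at 173 ± 192 per 1000000 in members and 196 ± 126 in comparison barcodes, so it was not raised in members. Barcodes with more Umod and Slc12a1 than Slc12a3 and Pvalb are therefore called Umod-leading here, and those with the reverse Slc12a3-leading. Marker genes of the macula densa, of which 4 of 6 listed had any counts in tubular-marked barcodes, were at 0 UMIs in members. That allows up to 4.26 per 1000000 nuclear UMIs outside the 6 markers (3 counts over all members, counting error only). In comparison barcodes they had 18 UMIs, at 11.2 ± 5.04 per 1000000 on the same scale.

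RNA of other cell types was present in both sets. Summed levels are given per 1000000 nuclear UMIs outside the 6 markers (CPM), the scale used from here on. The 12 podocyte markers together stood at 1377, 1286, 1204 and 1355 CPM in members and at 2660, 2838, 1485 and 2392 CPM in comparison barcodes, higher in the latter in each library. A podocyte marker UMI was found in 62.8% ± 5.36 of members and 65.3% ± 4.94 of comparison barcodes, and after thinning to 400 nuclear UMIs in 33.5% ± 7.55 and 31.6% ± 2.99. Connecting tubule and principal cell markers stood at 16791 ± 6859 CPM in members and 22770 ± 7385 in comparison barcodes, intercalated cell markers at 419 ± 124 and 1008 ± 229, and proximal tubule markers at 73.9 ± 9.42 and 69.4 ± 26.8. Intercalated cells are the acid-base cells of the collecting system and principal cells its water- and salt-handling cells. The part of these other cell types in each difference below was not tested apart from the fits without marked barcodes.

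Nuclear genes outside the 6 markers were compared between members and comparison barcodes on UMIs summed per library. The test was edgeR's quasi-likelihood test with the library as a block and Benjamini-Hochberg adjustment over all genes tested, at a threshold of 0.05. Of 7620 genes, 109 were higher in members (1.43% of all genes tested) and 124 lower (1.63%), 3.06% in either direction. Among barcodes with more tubular marker UMIs than podocyte, endothelial and mural marker UMIs, called tubule-dominant here, 548 members were set against 826 comparison barcodes. Of 7398 genes, 82 were higher (1.11%) and 89 lower (1.2%), 2.31% in either direction. The 429 Slc12a3-leading members against 597 such comparison barcodes gave 41 higher (0.634%) and 52 lower genes (0.804%) of 6468, 1.44% in either direction. The 80 Umod-leading members against 91 gave 4 higher (0.377%) and 3 lower (0.282%) of 1062, 0.659% in either direction. Without replicate 2 the tubule-dominant counts were 41 and 41, and the Slc12a3-leading counts 25 and 19. By DESeq2 they were 23 and 23, and 15 and 10, so that 60% of the Slc12a3-leading calls were higher instead of 44.1%. Folds below are log2 folds of members over comparison barcodes, tubule-dominant unless stated. The podocyte, endothelial and mural markers helped choose those barcodes and are no test there.

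Some genes of distal salt and magnesium handling were higher in tubule-dominant members. Of 18 distal convoluted tubule markers tested, 5 rose (beside 1.11% of all genes) and 0 fell, with a median of 0.29 beside 0.00 over all genes tested. Without replicate 2, 2 of 18 rose. Among the Slc12a3-leading barcodes, 2 of 18 rose (Abca13 and Slc16a7, beside 0.634%), with a median of 0.18 beside -0.02. Of 13 magnesium, calcium and hormone genes of the distal nephron, 2 rose (Egf and Trpm6) and 2 fell (Calb1 and S100g). The shares over all genes were 1.11% and 1.2%. In Slc12a3-leading barcodes 1 of 13 rose (Egf) and 2 fell (Calb1 and S100g), beside 0.634% and 0.804%. These lists stand beside the 6 markers that chose the barcodes and are no independent sign of direction.

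Egf encodes the precursor of epidermal growth factor, a hormone made by the distal nephron that promotes magnesium uptake. It stood at 3300, 5565, 6156 and 4904 CPM in members of replicates 1 to 4, and at 1779, 2901, 2764 and 3660 in comparison barcodes. Members were higher in each of the 4 libraries, although the lowest member value lay below the highest comparison value. On the log2 scale members were higher by 0.88 ± 0.08 (SE; edgeR, adjusted p = 1.24e-10). In Slc12a3-leading barcodes it was 0.62 ± 0.07 (adjusted p = 2.12e-12), and in Umod-leading barcodes 1.10 ± 0.20 (adjusted p = 0.0122). Without the block, the Slc12a3-leading value missed the threshold (adjusted p = 0.0695). Egf lies on GRCm38 chromosome 3, 129677565 to 129755316, on the minus strand.

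Abca13, a large transporter of the ATP-binding cassette family (GRCm38 chromosome 11, 9191942 to 9684259), showed the largest fold among the distal markers. Its levels were 538, 758, 579 and 739 CPM in members and 218, 314, 257 and 449 CPM in comparison barcodes. No member value overlapped a comparison value. The log2 fold was 1.14 ± 0.12, and 0.94 ± 0.13 in Slc12a3-leading barcodes (edgeR, adjusted p = 8.62e-09 and 7.16e-10). Slc16a7, a carrier of lactate and pyruvate, stood at 598, 983, 1440 and 971 CPM in members and 459, 764, 647 and 736 CPM in comparison barcodes. It was higher in each library, with a log2 fold of 0.60 ± 0.10 (edgeR, adjusted p = 0.000239). It missed the threshold without barcodes carrying connecting tubule or podocyte markers, without the block, with the limit at 25% and after thinning.

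The kinases Wnk4 and Wnk1, which regulate Slc12a3, were higher in tubule-dominant members, with calls that many alternatives ended. Wnk4 stood at 409, 545, 564 and 543 CPM in members and 349, 367, 365 and 460 CPM in comparison barcodes, a log2 fold of 0.47 ± 0.12 (edgeR, adjusted p = 0.0162). Wnk1 rose by 0.28 ± 0.07 (adjusted p = 0.0110). In Slc12a3-leading barcodes neither passed the test, at 0.22 ± 0.13 for Wnk4 and 0.13 ± 0.08 for Wnk1. The magnesium channel Trpm6 rose by 0.65 ± 0.18 (edgeR, adjusted p = 0.0349), and the potassium channel Kcnj1, which returns potassium to the urine, by 0.33 ± 0.09 (adjusted p = 0.0352). Neither passed in Slc12a3-leading barcodes. Wnk4 was called in 8 and Trpm6 in 9 of 19 alternatives, and both lost the call by DESeq2, with the limit at 15% or 25%, after thinning, without the block and without replicate 2. Wnk1 and Kcnj1 also lost it by DESeq2 and without replicate 2.

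The basolateral potassium channel Kcnj10 (0.60 ± 0.18) did not pass. The calcium-binding proteins of the late distal tubule went the other way. S100g, a vitamin D-dependent calcium buffer, fell by 0.70 ± 0.09 and Calb1, calbindin, by 0.29 ± 0.07 (edgeR, adjusted p = 1.7e-06 and 0.0185). Calb1 turned to 0.56 when barcodes with 5 or more connecting tubule and principal cell marker UMIs were left out. Calb1 is itself on that list, so this choice selects on its own counts and is no test of its fall.

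**Figure D3:**
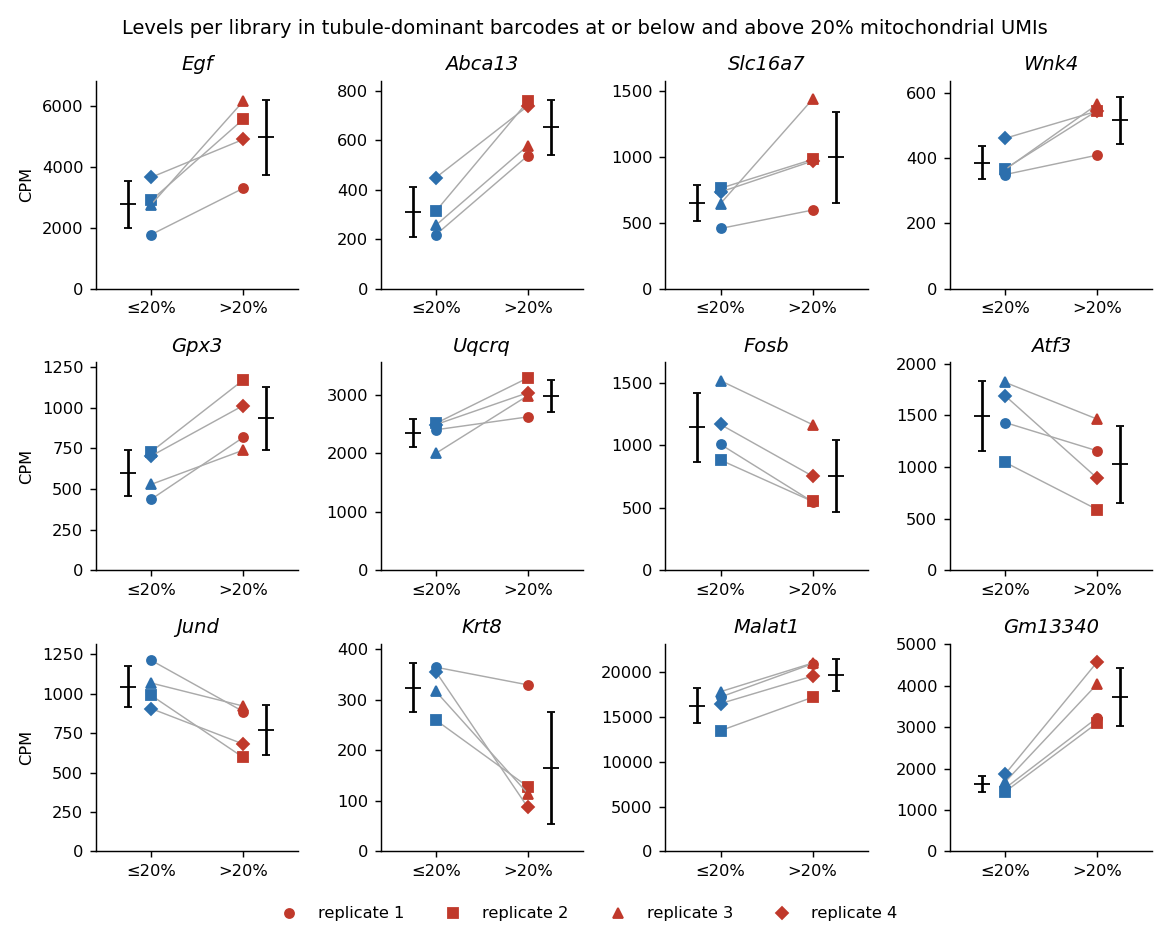
Levels of 12 genes in CPM (UMIs per 1000000 nuclear UMIs outside the 6 markers) in tubule-dominant barcodes at or below and above 20% mitochondrial UMIs. Each symbol is 1 library, lines join the same library, and black bars give the mean ± SD (n = 4). Egf, Abca13, Slc16a7, Wnk4, Gpx3, Uqcrq, Malat1 and Gm13340 are higher above the limit in each library, and Fosb, Atf3, Jund and Krt8 lower.

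Nuclear genes of the respiratory chain were slightly higher in members. Over 81 nuclear subunits of complexes I to V tested, 13 rose (beside the 1.11% of all genes) and 0 fell, 67 had a positive fold, and the median was 0.17 beside 0.00 over all genes. By complex, 3 of 37 rose in complex I, 0 of 4 in complex II, 4 of 10 in complex III, 2 of 12 in complex IV and 4 of 18 in complex V. Among the Slc12a3-leading barcodes, 2 of 81 rose (beside 0.634%), with a median of 0.07. DESeq2, the fit without the block and the fit without podocyte-marked barcodes each called 0 of the subunits in complexes I, III, IV and V, with 31 of 37, 9 of 10, 9 of 12 and 15 of 18 positive by DESeq2. Without replicate 2 the calls were 1 in complex I, 3 in complex III, 0 in complex IV and 1 in complex V.

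The largest folds belonged to complex III, which passes electrons from ubiquinol to cytochrome c. Its small subunit Uqcrq stood at 2622, 3289, 2986 and 3035 CPM in members and 2401, 2511, 1998 and 2490 CPM in comparison barcodes. Every member value was above every comparison value, and the log2 fold was 0.38 ± 0.07 (edgeR, adjusted p = 0.000683). Uqcr11 gave 0.38 ± 0.07, Uqcr10 0.36 ± 0.07 and the core subunit Uqcrc2 0.37 ± 0.10. In Slc12a3-leading barcodes Uqcrq (0.29 ± 0.08, adjusted p = 0.0208) and Uqcr11 (0.29 ± 0.08, adjusted p = 0.0346) rose. In complex I, Ndufa1 rose by 0.34 ± 0.08 and Ndufa13 by 0.33 ± 0.08. In complex IV, Cox4i1, the regulatory subunit, went from 4131 ± 282 to 4828 ± 308 CPM (0.25 ± 0.06). The ATP synthase subunit Atp5k rose by 0.35 ± 0.08 and Atp5e by 0.31 ± 0.07. Cox4i1 was called in 9 of 19 alternatives, and lost the call by DESeq2, without the block and without replicate 2, 3 or 4. Ndufa13 and Atp5e were each called in 12 of 19. In Slc12a3-leading barcodes Cox4i1, Ndufa13 and Atp5e were each called in 0 of 19.

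Several other metabolic and mitochondrial gene groups gave no calls by edgeR at the adjusted threshold. None of 17 citric acid cycle genes, 17 fatty acid oxidation genes, 13 genes of mitochondrial biogenesis and expression, 21 carrier and import genes, 14 genes of mitophagy and fission or fusion and 9 apoptosis genes passed in either direction. At an unadjusted p under 0.05 there were 2, 3, 1, 0, 2 and 1. The medians were 0.19, 0.12, 0.02, 0.03, -0.09 and -0.27. For the transcriptional regulator Esrrb the log2 fold was 0.79 ± 0.39 and for the pro-apoptotic Bbc3 it was -1.67 ± 0.60, both short of the threshold. Of 9 mitochondrial chaperone and integrated stress response genes tested, 0 rose and 2 fell (beside 1.2% of all genes), and 0 fell without replicate 2. The transcription factor Atf4 fell from 371, 346, 446 and 352 CPM to 189, 216, 320 and 283 (-0.57 ± 0.14; edgeR, adjusted p = 0.0183), and the secreted stress protein Gdf15 by 1.22 ± 0.28 (adjusted p = 0.00753). Neither passed in Slc12a3-leading barcodes.

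**Figure D4:**
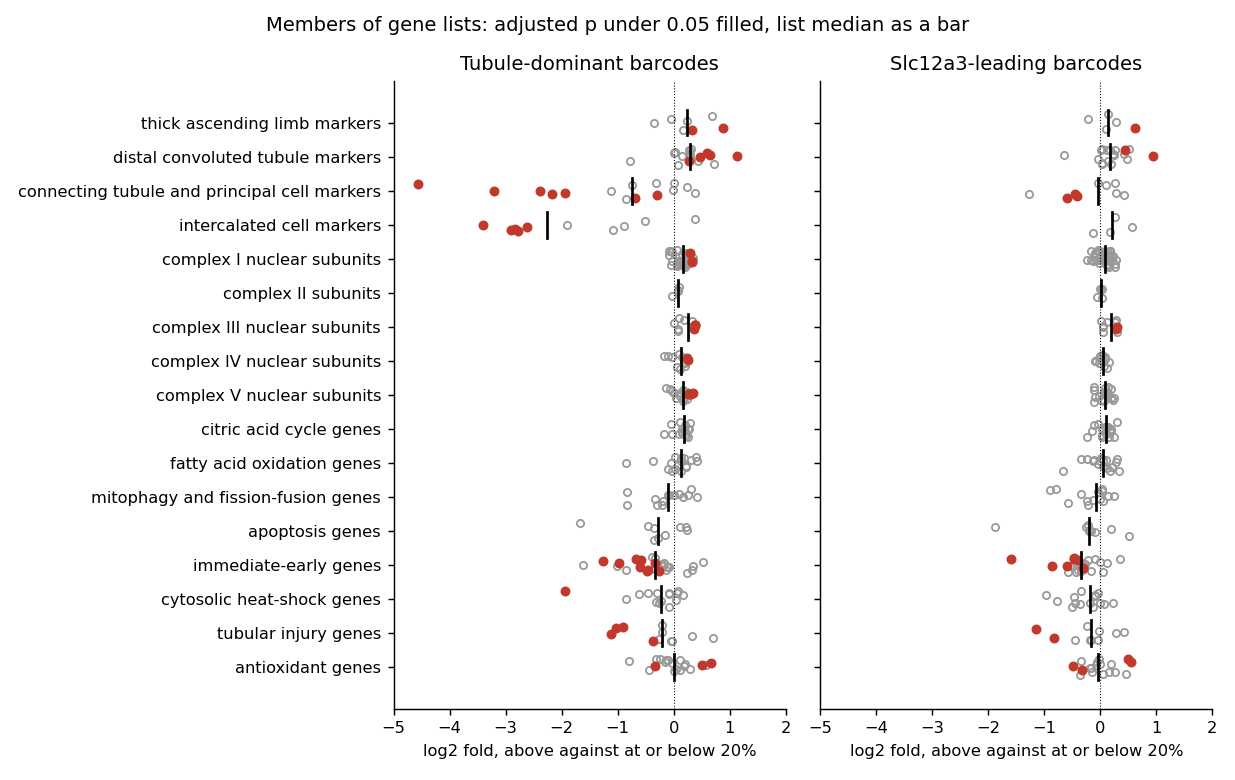
Log2 folds of members over comparison barcodes (horizontal axis) for each tested gene of 17 lists, in tubule-dominant (left) and Slc12a3-leading barcodes (right). Filled points passed edgeR's test at an adjusted p under 0.05, open points did not, and bars give list medians. Respiratory chain subunits lie close to 0 on the positive side, and connecting tubule and intercalated markers reach far below 0 on the left only.

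The make-up of the mitochondrial transcripts themselves, which the rule did not use, also differed. The large ribosomal RNA mt-Rnr2 took 41.6%, 35.9%, 36.7% and 36.6% of mitochondrial UMIs in members and 39.96%, 33.7%, 35.8% and 34.7% in comparison barcodes, higher in each library. The small ribosomal RNA mt-Rnr1 took 11.6% ± 1.08 and 10.4% ± 0.581, also higher in 4 of 4. Among messenger RNAs, mt-Cytb, a subunit of complex III, took a smaller share in members, at 13.7%, 16.8%, 16.01% and 16.04% against 17.3%, 19.5%, 17.9% and 18.2%. The sets did not overlap. The complex I subunit mt-Nd1 was lower in 4 of 4 libraries (10.2% ± 0.780 against 11.4% ± 0.902).

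The complex I subunits mt-Nd5 and mt-Nd6 took larger shares in members. For mt-Nd5 the share was 6.50%, 6.53%, 6.07% and 5.87% in members and 5.29%, 5.58%, 5.35% and 5.44% in comparison barcodes. The sets did not overlap. The share of mt-Nd6, encoded on the opposite strand to mt-Nd5, was 1.43%, 1.01%, 1.42% and 1.052% against 0.854%, 0.788%, 0.885% and 0.896%, a ratio of means of 1.44, also with no overlap. These shares are given as description, with no test. The strand setting of the counting is not given in the sources used here, and whether mt-Nd5 and mt-Nd6 shared reads was not tested. Several protein-coding mitochondrial genes were nearly absent from the tables in both sets together, with 14 UMIs of mt-Co3, 6 of mt-Atp6, 5 of mt-Co2, 1 of mt-Nd3 and 1 of mt-Nd4l, against 28815 of mt-Co1. Each of the nearly absent genes has a matching nuclear gene at 99.71% identity or more, as do mt-Co1 and mt-Nd4. Reads of such pairs can be exchanged in counting, so these counts are uncertain as measures of expression.

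Nuclear genes whose annotated transcripts carry mitochondrial sequence were higher in members. A comparison of GENCODE M21 transcripts found 18 nuclear genes with at least 50 bases matching a mitochondrial transcript at 90% identity or more, and 12 of them were tested. Of these, 8 rose (beside 1.11% of all genes) and 0 fell, with a median of 1.19 beside 0.00 over all genes. Reads from such copies and from the mitochondrial genome can be exchanged in counting, so their values are uncertain as measures of nuclear transcripts. The barcodes were chosen by their mitochondrial share, so exchanged reads would raise these genes through the choice itself. Their counts, folds and p-values, here and below, are therefore no independent test. They made up 8 of the 82 genes that rose, and without them 74 rose and 85 fell of 7386 tested. The last 90 bases of the copies Gm28437 and Gm13340 are shown beside their mitochondrial counterparts because Drop-seq primes at the 3′ ends of transcripts. Capitals mark bases that differ within a pair. Sequences are from GENCODE M21 on GRCm38, with Gm28437 at chr1:24613189-24613278 and Gm13340 at chr2:22588103-22588192, both on the minus strand, written 5′ to 3′.
Gm28437: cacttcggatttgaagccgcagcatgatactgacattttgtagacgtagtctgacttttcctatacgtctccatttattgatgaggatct
mt-Co3: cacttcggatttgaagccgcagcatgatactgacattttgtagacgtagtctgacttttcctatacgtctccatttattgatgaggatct
Gm13340: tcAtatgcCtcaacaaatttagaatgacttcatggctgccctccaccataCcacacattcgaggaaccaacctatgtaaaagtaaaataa
mt-Co1: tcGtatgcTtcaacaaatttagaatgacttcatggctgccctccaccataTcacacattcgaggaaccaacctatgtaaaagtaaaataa

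The Gm28437 stretch was identical to mt-Co3, while Gm13340 differed from mt-Co1 at 3 of 90 bases. Gm13340, an unprocessed pseudogene inside Myo3a on the opposite strand, stood at 3230, 3104, 4045 and 4578 CPM in members and 1528, 1443, 1681 and 1870 CPM in comparison barcodes. The log2 fold was 1.21 ± 0.07 (edgeR, adjusted p = 3.9e-16), and its neighbour Gm13341, matching mt-Co2, gave 1.18 ± 0.07 (adjusted p = 1.17e-14). Gm28437 itself was low, at 83.7 ± 21.6 against 31.6 ± 12.2 CPM (1.39 ± 0.33; edgeR, adjusted p = 0.0110). The others that rose were Gm28438, which matches mt-Nd3, at 734 ± 196 against 402 ± 67.6 CPM, and Gm11407 (1.43 ± 0.35), Gm11410 (1.41 ± 0.21), Gm11512 (1.20 ± 0.22) and Gm4076 (1.18 ± 0.22).

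Several of the largest rises were of non-coding or antisense annotations. Gm23935, annotated as a miRNA gene inside Zc3h7a on the opposite strand, stood at 120, 280, 343 and 536 CPM in members and at 21.8, 72.9, 11.2 and 36.2 CPM in comparison barcodes (2.84 ± 0.26; edgeR, adjusted p = 2.7e-10). Lars2, the mitochondrial leucyl-tRNA synthetase (GRCm38 chromosome 9, 123366927 to 123462666), stood at 49.9, 143, 83.8 and 181 against 7.28, 49.4, 29.8 and 7.25 CPM. Its log2 fold was 2.10 ± 0.33 (edgeR, adjusted p = 5.76e-05), and its transcripts held no mitochondrial match by the stated limits. Whether reads of Gm23935 or Lars2 were shared with or assigned from other transcripts cannot be checked from these counts, so their values are uncertain. Neither gene's sets overlapped. Mtif2, a mitochondrial translation initiation factor, rose by 1.21 ± 0.29 and the receptor phosphatase Ptprd by 1.32 ± 0.29. Of the alternatives in which each was tested, Mtif2 was called in 9 of 16 and Ptprd in 14 of 17.

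4 of the 15 genes with the largest rises overlap an abundant gene on the opposite strand. Gm44588 overlaps Umod, a marker in the rule, and Gm42697 and 6330410L21Rik overlap Egf. Gm37376 overlaps Malat1. Whether the counting used strand is not given in the sources used here, so reads of these pairs cannot be told apart. Malat1, an RNA retained in the nucleus, stood at 20960, 17210, 21030 and 19580 CPM in members and 17240, 13490, 17840 and 16510 CPM in comparison barcodes. It was higher in 4 of 4 libraries (0.31 ± 0.05; edgeR, adjusted p = 0.000131), and Gm37376 went from 553 ± 112 to 1245 ± 313 CPM (1.19 ± 0.09). Malat1 lost its call without the block, without connecting tubule-marked or podocyte-marked barcodes and after thinning. Neat1, another nuclear RNA, was at 438 ± 58.3 against 563 ± 247 CPM and did not pass. Gm42418 stood on the same gene list, but where its RNA lies in the cell was not tested. Gm42418 fell by 0.49 ± 0.08 (edgeR, adjusted p = 7.06e-05), from 2012, 1892, 2199 and 2062 CPM to 1446, 1150, 1859 and 1391. It lost its call with the limit at 15%, without the block and without podocyte-marked barcodes.

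Immediate-early genes, which switch on within minutes of handling or injury, were lower in members. Of 27 tested, 9 fell (beside 1.2% of all genes) and 0 rose, with a median of -0.32 beside 0.00. In Slc12a3-leading barcodes 7 of 24 fell (beside 0.804%), with a median of -0.34. DESeq2 called 3 and 2 lower, and without replicate 2 the counts were 5 of 24 and 5 of 23. Without the block the counts were 0 of 27 and 1 of 24, and without podocyte-marked barcodes 1 of 24 and 0 of 21.

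Fosb, a partner in the AP-1 transcription factor, stood at 548, 551, 1166 and 753 CPM in members and 1008, 882, 1518 and 1167 CPM in comparison barcodes. It was lower in each library, and the ranges of the sets overlapped. The log2 fold was -0.59 ± 0.09 (edgeR, adjusted p = 3.5e-05), and -0.59 ± 0.10 in Slc12a3-leading barcodes (adjusted p = 3.43e-06). Atf3, a stress-induced transcription factor, stood at 1156, 587, 1463 and 891 against 1430, 1044, 1819 and 1689 CPM (-0.58 ± 0.09; edgeR, adjusted p = 6.27e-05). Jund stood at 887, 596, 922 and 681 against 1212, 990, 1068 and 906 CPM (-0.45 ± 0.09; adjusted p = 0.00234). Klf4 fell by 0.97 ± 0.19, and the small Maf protein gene Maff, chosen after its value was seen, by 1.26. Among 15 cytosolic heat-shock genes only Cryab, a small heat-shock protein, fell (-1.94 ± 0.23), and the median of the list was -0.23.

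Keratins and vimentin, which damaged tubule cells make in excess, were also lower. Of 11 tubular injury genes tested, 0 rose and 4 fell (beside 1.2% of all genes), with a median of -0.21, and without replicate 2 there were 2 of 9 lower. Krt8 stood at 329, 128, 114 and 86.9 CPM in members and 364, 260, 316 and 355 CPM in comparison barcodes. Replicate 1 lay close to the comparison value of its own library, and the other libraries lay well below theirs (-1.02 ± 0.19; edgeR, adjusted p = 0.000646). Its partner Krt18 fell by 1.11 ± 0.20 and Vim by 0.90 ± 0.20. In Slc12a3-leading barcodes Krt8 (-0.82 ± 0.20) and Vim (-1.15 ± 0.23) fell, and Krt18 did not pass. Vim turned to 0.30 and lost its call without podocyte-marked barcodes, and Krt8 lost its call without connecting tubule-marked ones. Leaving out podocyte-marked barcodes kept 210 of 548 tubule-dominant members and 306 of 826 comparison barcodes. In Slc12a3-leading barcodes the log2 folds of Vim lay between -1.743 and -0.5993 over the 18 alternatives in which it was tested. The cause of the reversed Vim value was not tested.

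Of 19 antioxidant genes tested, 2 rose and 1 fell, with a median of 0.02 and 10 positive folds. Gpx3, a secreted glutathione peroxidase made by kidney tubules, stood at 818, 1171, 739 and 1014 CPM in members and 437, 729, 528 and 703 CPM in comparison barcodes, with no overlap (0.67 ± 0.09; edgeR, adjusted p = 5.52e-06). Sod1, the cytosolic superoxide dismutase, stood at 738, 484, 648 and 674 against 437, 346, 491 and 533 CPM, higher in each library (0.51 ± 0.11; adjusted p = 0.00301). The metallothionein Mt2 fell by 0.33 ± 0.08 (adjusted p = 0.0207), and stood at 0.09 with the limit at 15%. In Slc12a3-leading barcodes Gpx3 (0.56 ± 0.10) and Sod1 (0.49 ± 0.12) rose, and Mt1 (-0.33 ± 0.07) and Mt2 (-0.48 ± 0.08) fell. Gpx3 lost its tubule-dominant call without connecting tubule-marked or podocyte-marked barcodes and after thinning. Sod1 lost it by DESeq2, with the limit at 25%, without the block and without either kind of marked barcode. Of 15 glycolysis genes only Pkm, pyruvate kinase, rose, by 0.50 ± 0.09 (adjusted p = 0.000372).

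Genes of the collecting system were lower in members. Of 15 connecting tubule and principal cell markers 7 fell and 0 rose, and of 10 intercalated cell markers 5 fell and 0 rose (beside 1.2% of all genes), with medians of -0.74 and -2.26. Without replicate 2 there were 3 of 13 and 2 of 6 lower. Fxyd4, a sodium pump regulator of the collecting duct, stood at 0, 0, 7.62 and 21.7 CPM in members and 98.2, 177, 216 and 68.8 CPM in comparison barcodes (-4.57 ± 0.48; edgeR, adjusted p = 1.03e-08). The water channel genes Aqp2 and Aqp3 had log2 folds of -2.17 ± 0.33 and -2.38 ± 0.39, and Atp6v1g3, a proton pump subunit of intercalated cells, -2.62 ± 0.28. In Slc12a3-leading barcodes 3 of 9 connecting tubule and principal cell markers fell (Calb1, S100g and Klk1, beside 0.804% of all genes), and 0 of 4 intercalated markers changed, with medians of -0.05 and 0.21. By barcode, 47.5% of members and 64.0% of comparison barcodes had at least 5 UMIs of connecting tubule and principal cell markers. At least 5 intercalated marker UMIs were found in 5 members (0.903%) and 56 comparison barcodes (6.32%). Members held fewer nuclear UMIs, so a fixed count of marker UMIs was harder to reach in them. Barcodes were also thinned to equal nuclear UMIs, as for the podocyte markers. Any UMI of connecting tubule or principal cell markers was then in 67.9% ± 7.57 of members and 74.6% ± 2.90 of comparison barcodes. For intercalated markers these shares were 13.9% ± 4.32 and 16.2% ± 1.91. From the library sums alone, fewer barcodes with these markers and less of their RNA per barcode cannot be told apart.

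Among other genes with large falls, the chemokine Cxcl10 stood at 19.9, 0, 0 and 7.24 CPM in members and 76.4, 70.4, 33.5 and 54.4 CPM in comparison barcodes (-3.64 ± 0.62; edgeR, adjusted p = 0.000136). It fell in Slc12a3-leading barcodes as well (-3.34 ± 0.64), and lost both calls without replicate 2 or with the limit at 15%. Adm, the vasodilator peptide adrenomedullin, fell by 1.70 ± 0.36.

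The same genes were followed across bins of mitochondrial share on both sides of the limit. In tubule-dominant barcodes pooled over libraries, Egf stood at 1526, 2471, 3483, 5128 and 4322 CPM in the bins of 5 to 10, 10 to 15, 15 to 20, 20 to 25 and 25 to 30% and at 6095 above 30%. Genes with mitochondrial sequence went from 1821 CPM in the bin of 5 to 10% to 11352 above 30%, and Malat1 from 14698 to 21571. Immediate-early genes went from 22052 to 12861 and Krt8 from 451 to 87.2 over the same bins. The nuclear respiratory chain genes levelled off early, at 89358 CPM in the bin of 5 to 10%, 117788 at 15 to 20% and 124596 above 30%. Connecting tubule and principal cell markers stood at 32453 CPM at 10 to 15%, 15300 at 15 to 20% and 15350 above 30%. Bins share libraries, and barcodes differ in depth between them. Genes with mitochondrial sequence may take up reads of the mitochondrial genome, whose share set the bins.

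**Figure D5:**
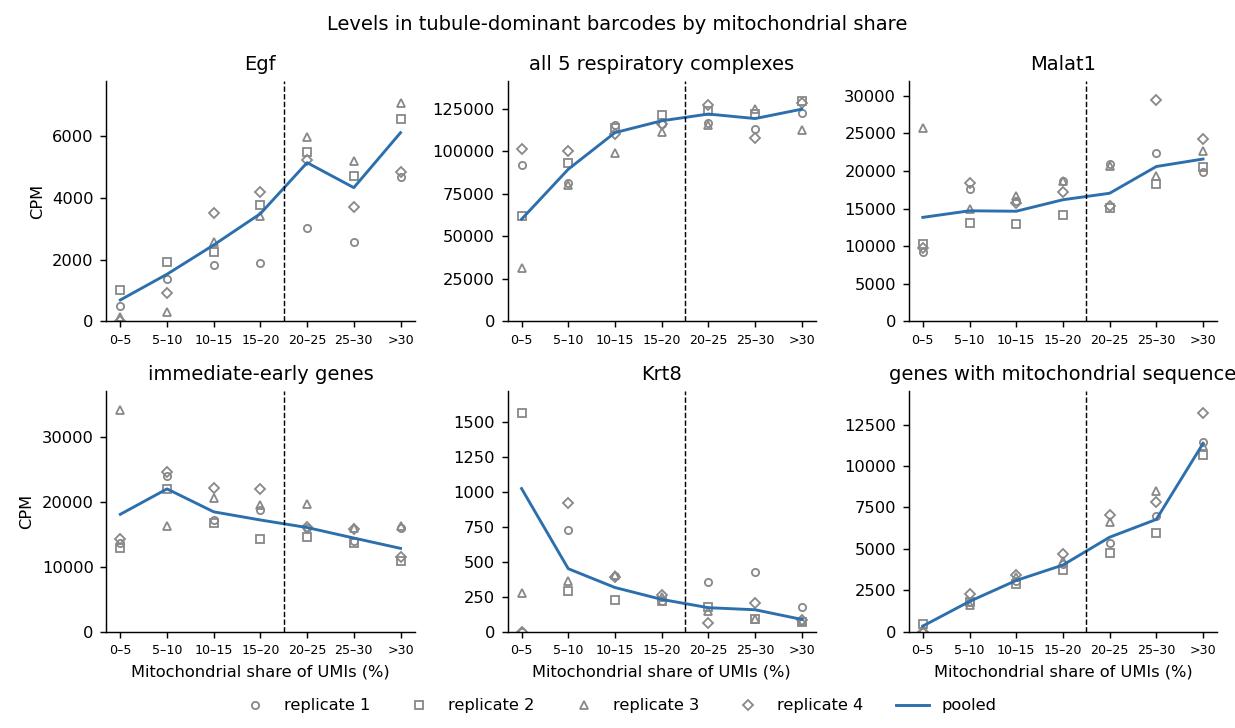
Levels in CPM of Egf, the nuclear genes of the 5 respiratory complexes, Malat1, immediate-early genes, Krt8 and genes with mitochondrial sequence in tubule-dominant barcodes, by bin of mitochondrial share in percent. Symbols are libraries, lines the values pooled over libraries, and the dashed line marks 20%. Egf, Malat1 and the genes with mitochondrial sequence are higher, and Krt8 and immediate-early genes lower, in the bin above 30% than in that of 5 to 10%. The bin of 0 to 5% holds 17 barcodes.

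Umod-leading barcodes were not free of distal convoluted tubule transcripts, since 76.25% of the members among them had a Slc12a3 UMI and 15% a Slc12a1 UMI. In Umod-leading comparison barcodes these shares were 57.1% and 26.4%. Of tubule-dominant members, 77.96% ± 3.41 were Slc12a3-leading and 14.6% ± 1.68 Umod-leading, against 72.3% ± 6.58 and 11.1% ± 2.17 of the comparison barcodes. In Umod-leading barcodes Egf, Gm13340, Gm13341 and Gm44588 rose, and Klk1b5, Atp6v1g3 and Nfkbia fell. Gm13340 and Gm13341 hold mitochondrial sequence, and Gm44588 overlaps Umod. Their rises are tied to values that chose the barcodes and are no independent test. Nfkbia, an inhibitor of NF-kB, stood at 372, 401, 215 and 123 CPM in members and 881, 871, 1077 and 492 CPM in comparison barcodes (-1.44 ± 0.29; edgeR, adjusted p = 0.0263). A test of the difference between the Umod-leading and Slc12a3-leading folds called 2 of 6924 genes (0.0289%), the kallikreins Klk1 and Klk1b5. Klk1, tissue kallikrein of the connecting tubule, stood at 3646, 10310, 2729 and 1411 CPM in Umod-leading members and at 42400, 24070, 3230 and 935 in Umod-leading comparison barcodes. The comparison values of replicates 1 and 2 were high and those of replicates 3 and 4 low. In Slc12a3-leading barcodes Klk1 was at 4478 ± 2660 and 5724 ± 2175 CPM. The interaction was -1.29 ± 0.25 for Klk1 and -2.02 ± 0.42 for Klk1b5 (edgeR, adjusted p = 0.00141 and 0.00458), and neither passed by DESeq2 or without replicate 1 or 4.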

How the data were processed

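The authors deposited Drop-seq tables of UMI counts, with genes in rows and barcodes in columns. The submitters' processing notes name STAR and HTSeq. Versions, genome build, annotation and strand setting are not given in the sources used here. Coordinates and transcripts are from GENCODE M21 (GRCm38), matched by symbol for all 132 named genes. The 2 bulk libraries were not used here.

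The 4 tables held 28327 genes. Counts of nuclear genes outside the 6 markers were summed per library and set of barcodes. Genes with at least 40 UMIs over the 8 sums were tested in R 4.3.3 by the quasi-likelihood test of edgeR 4.0.16, with TMM factors and a term for the library. Adjustment was by Benjamini-Hochberg at a threshold of 0.05, and DESeq2 1.42.0 was an alternative. Both sets came from the same library, which gives the pairing, and their deviations from the set means correlated at 0.0508 to 0.169 within a library in the tubule-dominant comparison. Slc12a3-leading and Umod-leading barcodes had at least 2 UMIs of their marker pair. Connecting tubule-marked barcodes had at least 5 UMIs of that list, and podocyte-marked barcodes at least 1 of theirs. Without them 287 and 210 tubule-dominant members remained. Transcripts were compared with blastn. The fits were tested on simulated data with no differences between libraries other than depth. In the tubule-dominant comparison 51% of 2-fold and 81% of 4-fold changes were recovered, with 6 false calls. In the Slc12a3-leading comparison these were 38%, 85% and 5, so many 2-fold changes can be missed. Sums, thinning and figures were made with Python 3.11.15 (matplotlib 3.10.9, scipy 1.17.1, pandas 2.3.3, numpy 2.4.6).

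The members, gene lists, tests and alternatives were chosen with earlier results of these data known. Genes were named by rule, from the tubule-dominant comparison. It took up to 15 genes in each direction with the largest folds, among called genes with at least 100 UMIs that moved alike in 4 of 4 libraries, and up to 4 genes per list with the smallest p. Maff, Klk1, Klk1b5, Nfkbia, Gm28438 and Gm11407 were added after their values were seen. Fits without connecting tubule-marked, podocyte-marked or shared barcodes or without genes holding mitochondrial sequence, and all alternatives for the difference between Umod-leading and Slc12a3-leading barcodes, were chosen after seeing the data. Some results on single genes are not reported here.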

Additional observations from a re-analysis of the deposited data

Results flagged for a closer look

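Several values of single libraries stood apart from the other three, by a gap that took up more of the group's range than Dixon's limit allows. Chance flags about 1 in 20 groups. In members, replicate 1 had the lowest Wnk4 (408.7 CPM, the others 543.3 to 563.8), the highest Krt8 (329 CPM, the others 86.93 to 127.8), the lowest summed distal convoluted tubule markers (8215 CPM), the lowest Slc12a3 (4105 per 1000000 nuclear UMIs, the others 4866 to 5022) and the largest mt-Rnr2 share of mitochondrial UMIs (41.58%, the others 35.89% to 36.72%). Replicate 2 had 265 members, with 92 to 105 in the others, and the highest Pvalb (6045 per 1000000 nuclear UMIs, the others 5360 to 5470). In comparison barcodes, replicate 4 had the highest Wnk4 (460.2 CPM, the others 349.3 to 367), the lowest summed connecting tubule and principal cell markers (11790 CPM, the others 25450 to 27740) and the lowest summed parietal epithelial markers (976.5 CPM, the others 1296 to 1359).

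The fold between members and comparison barcodes differed between Umod-leading and Slc12a3-leading barcodes for Klk1 (-1.292 on the log2 scale, Umod-leading minus Slc12a3-leading) and Klk1b5 (-2.016), by edgeR's interaction test. Both belong to a family of near-identical genes whose reads can be exchanged, so the split between them is uncertain.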

How the results depend on the processing

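Counts are given as higher and lower genes for all tubular-marked, tubule-dominant, Slc12a3-leading and Umod-leading barcodes in that order. DESeq2 gave 38 and 33, 23 and 23, 15 and 10, 2 and 0. Without connecting tubule-marked barcodes the first comparison had 68 higher, and the others 35 and 35, 9 and 11, 2 and 1. Without podocyte-marked barcodes the counts were 17 and 18, 17 and 12, 7 and 1, 2 and 0. After thinning to 400 nuclear UMIs the first 3 gave 47 and 42, 36 and 28, 11 and 14. With the limit at 15%, 228 were lower in the first and 149 in the second, and the Umod-leading counts were 12 and 7. At 25% the counts were 46 and 78, then 43 higher, 23 and 24, and 2 higher. With no filter on low counts the counts were 56 and 174, 50 and 143, 20 and 72, 4 and 11. Umod-leading counts were 1 and 0 with at least 500 genes, 0 lower without TMM factors and 2 higher without genes holding mitochondrial sequence. Slc12a3-leading barcodes had 34 lower without Atp1b1 among the markers. The difference between Umod-leading and Slc12a3-leading barcodes gave 0 calls by DESeq2, by filterByExpr, after thinning and without connecting tubule-marked or podocyte-marked barcodes. The cause was not tested, except that leaving out barcodes and thinning lower the counts tested.

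The pairing by library mattered. Without the replicate block the counts were 42 and 64, 34 and 47, 13 and 6, 2 and 0. Leaving out each library in turn gave 42 to 102 higher and 44 to 129 lower in the first comparison, 41 to 89 and 41 to 109 in the second, 25 to 36 and 19 to 43 in the third, 0 to 9 and 0 to 12 in the fourth, and 0 to 5 for the difference between Umod-leading and Slc12a3-leading barcodes. Reversed values were Vim at 0.30 without podocyte-marked barcodes, Calb1 at 0.56 without connecting tubule-marked ones and Mt2 at 0.0925 with the limit at 15%. Calb1 is on the list that marked the barcodes left out, so its reversed value is no test. Of the 73 named genes called, 26 were called by DESeq2 and 37 without the block. Without podocyte-marked barcodes 60 of them were tested and 15 called.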
